A study of Schizosaccharomyces pombe with 6 samples.

Results

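The genes for small nuclear RNAs (snRNAs) and small nucleolar RNAs (snoRNAs) of fission yeast were examined for Rad52, a homologous recombination protein, by chromatin immunoprecipitation (ChIP) on tiling arrays. Members were the annotated genes of biotype snRNA or snoRNA whose names start with sno, snR or snu, on chromosome I up to position 3700000 and on chromosomes II and III. Of 63 such genes, 54 lay in this range, and genes with overlapping windows of 500 bp were merged. This gave 48 loci of 10374 annotated loci tested, among them a cluster of 5 genes (snoZ8 to snoZ3, called snoZ8-snoZ3 here) and one of 3 genes (snR41 to snR51b). By class they comprised 5 spliceosomal snRNA genes, 18 genes annotated as box H/ACA snoRNA and 31 other snoRNA genes at 25 loci, which include the U3, U17 and U14 genes. A locus held 2 to 7 probes, with a median of 4.

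Small stable RNAs are made from these genes. Spliceosomal snRNAs form the core of the spliceosome, and most are transcribed by RNA polymerase II, whereas U6 is transcribed by RNA polymerase III. Most snoRNAs guide the modification of ribosomal RNA, methylation by box C/D RNAs and pseudouridylation by box H/ACA RNAs, and a few, such as U3, U14 and U17, are needed to cut the ribosomal RNA precursor. All are short, strongly transcribed and processed at their 3′ ends. Rad52 acts in the repair of broken DNA, and Rad3 is the fission yeast kinase of the ATR family that signals stalled replication.

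The ∆rad3 group comprised 3 arrays of a strain with the rad3 gene deleted, and the WT group 3 arrays without a labelled rad3 change, of which replicates 1 and 2 are described only by the background strain. The cdc25-22 allele, which blocks entry into mitosis at high temperature, was present in every strain. Cultures were held for 4 h at 36.5 °C and released at 25 °C in 6 mM hydroxyurea, an inhibitor of ribonucleotide reductase, and were collected 60 min later. For the ∆rad3 arrays and WT replicate 3 the labels place the drug 10 min after release. Only WT replicates 1 and 2 are labelled with a chromatin protocol (anti-Rad52 antibody, DNA sheared to 400 to 500 bp), while the others carry a protocol text for RNA. Every array set IP DNA in the green channel against input DNA in the red channel. Values are given as log2 of IP over input, centred so that each array's median is 0. By the labels every array had the same dye orientation, while the series text calls the input reciprocally labelled, so the direction of all values rests on the labels. In that orientation dye bias is part of every level. No control IP was included, and unspecific signal is therefore also part of the levels.

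Input signal over background was 6.53 to 12.9 on ∆rad3 arrays and 5.04 to 20 on WT arrays, and 193 probes covered the snRNA and snoRNA loci. The spread of log2 IP/input (median absolute deviation) was 0.34, 0.38 and 0.60 on ∆rad3 arrays and 0.31, 0.67 and 0.68 on WT arrays. Of 25 probes in the rad3 coding sequence, 9 were not above background in the input of each ∆rad3 array, against 0, 24 and 0 on WT replicates 1, 2 and 3. The rest of the coding probes were above background there, unlike on WT replicate 2. The library labelled WT replicate 2 therefore lacked rad3 DNA against its label. The main counts of calls, most medians and the largest strain differences of whole loci are also given without it. Values not so marked include it. Whether replicates are separate cultures is not labelled. The p-values therefore reflect only how much these arrays vary, and precision is limited by their number.

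The sequences below are of loci on which the results turn, from RefSeq (ASM294v3), 5′ to 3′ on the gene's strand. The snoU14 gene lies at chrII:1308634-1308745, and capitals mark its boxes C and D, the motifs that bind the box C/D proteins. The sno12 gene (box H/ACA snoRNA 12/snR99) lies at chrIII:583416-583605, with the ACA box in capitals. The snu6 gene (U6 snRNA) lies on the reverse strand at chrI:2562276-2562419, and capitals mark its intron of 50 bases, which holds a match to the B box (GTTCNANNC) of RNA polymerase III promoters.
snoU14: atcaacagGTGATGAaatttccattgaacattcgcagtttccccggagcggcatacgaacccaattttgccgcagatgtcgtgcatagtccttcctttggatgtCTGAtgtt
sno12: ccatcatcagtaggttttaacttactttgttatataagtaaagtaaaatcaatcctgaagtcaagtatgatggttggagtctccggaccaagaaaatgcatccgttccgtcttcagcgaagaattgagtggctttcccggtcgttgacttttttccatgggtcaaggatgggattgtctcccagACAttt
snu6: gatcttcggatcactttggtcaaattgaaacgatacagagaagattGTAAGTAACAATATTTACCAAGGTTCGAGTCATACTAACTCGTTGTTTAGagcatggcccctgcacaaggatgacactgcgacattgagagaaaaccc

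The next sequences run from the last 25 bases of a gene, in capitals, into the DNA 3′ of it, the side on which the IP/input ratio was higher. The highest probe of sno12, and that of snu4 in WT, lies beyond the stretch printed. They are chrII:1308721-1309020 for snoU14, chrIII:583581-583880 for sno12, and chrII:467248-467513 on the reverse strand for snu4, the gene of U4 snRNA, which pairs with U6.
snoU14 3′ region: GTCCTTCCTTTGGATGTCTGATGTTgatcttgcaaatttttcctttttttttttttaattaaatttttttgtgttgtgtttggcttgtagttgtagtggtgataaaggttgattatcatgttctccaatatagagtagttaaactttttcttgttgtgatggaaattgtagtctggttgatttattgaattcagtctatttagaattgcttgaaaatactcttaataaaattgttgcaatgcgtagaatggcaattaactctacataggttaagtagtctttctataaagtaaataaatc
sno12 3′ region: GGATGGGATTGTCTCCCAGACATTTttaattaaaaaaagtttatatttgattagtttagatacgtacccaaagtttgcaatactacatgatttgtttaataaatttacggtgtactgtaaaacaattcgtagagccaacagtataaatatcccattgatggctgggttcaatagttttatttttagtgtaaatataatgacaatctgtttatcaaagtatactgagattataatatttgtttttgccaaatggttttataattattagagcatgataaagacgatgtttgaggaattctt
snu4 3′ region: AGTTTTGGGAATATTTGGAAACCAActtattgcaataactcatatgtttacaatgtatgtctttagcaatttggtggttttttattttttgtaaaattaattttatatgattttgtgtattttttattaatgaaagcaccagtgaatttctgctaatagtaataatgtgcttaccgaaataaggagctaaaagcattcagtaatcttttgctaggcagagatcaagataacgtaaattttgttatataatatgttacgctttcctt

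IP/input was above the array median at most snRNA and snoRNA loci in both strains. The median level over the 48 loci was 0.24 in ∆rad3 and 0.36 in WT (0.35 without the library labelled WT replicate 2), against 0.00 in ∆rad3 and -0.02 in WT over all loci tested. By array, it was 0.34, 0.27 and 0.14 in ∆rad3 and 0.45, 0.41 and 0.27 in WT. Of the 48 loci, 23 (47.9%) were above 0 on all 6 arrays, against 12.6% of all loci tested, and snR46, a box H/ACA snoRNA gene, was below 0 on all 6. The median IP signal of the loci, centred per array, was 0.33 on the log2 scale and their median input signal 0.06. For comparison, 116 tRNA genes had medians of 0.47 in ∆rad3 and 0.49 in WT, 32 genes for 5S ribosomal RNA 0.51 and 0.54, and 4288 protein-coding genes -0.01 and -0.02. Without the library labelled WT replicate 2 their WT medians were 0.53, 0.60 and -0.01. A level covers the gene itself and 500 bp on each side, so a long gene adds more of its own body. The median number of probes was 4 at tRNA and 5S genes, 10 at protein-coding genes and 7 over all loci tested. Levels and called shares are therefore compared over windows of unlike length. No snRNA or snoRNA locus had a tRNA or 5S gene within 1 kb.

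A locus was called enriched where limma gave a Benjamini-Hochberg adjusted p under 0.05 and the mean level was at least 0.5. In ∆rad3, 4 of 48 loci (8.33%) were called, against 3.09% of all loci tested, namely snoU14, sno20, sno12 and snR3. In WT, 12 loci (25%) were called, against 4.14%. Over both strains, 9 loci (18.8%) were called, against 4.71%. With the arrays scaled to 1 spread, 9 loci were called in ∆rad3, against 6.89%, and 12 in WT, against 3.26%. With the slide as a replicate block, 8 loci were called in ∆rad3, against 5.55% of all loci, and snu6, snu4, snR5 and snoR68 joined the list. Without the library labelled WT replicate 2, the same 8 were called in ∆rad3, against 5.88%, 9 in WT, against 1.75%, and 8 over both strains, against 3.78%. The WT calls lost in this way were snoZ8-snoZ3, snR3 and snR10. The WT calls ended with normexp background correction, and also with a trended robust variance, where 0 loci of any kind were called in WT. Leaving out ∆rad3 replicate 1, 2 or 3 left 1, 2 and 1 loci called in ∆rad3, against 0.8%, 0.713% and 0.202% of all loci, and leaving out WT replicate 3 left 7 in WT, against 1%.

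**Figure D1:**
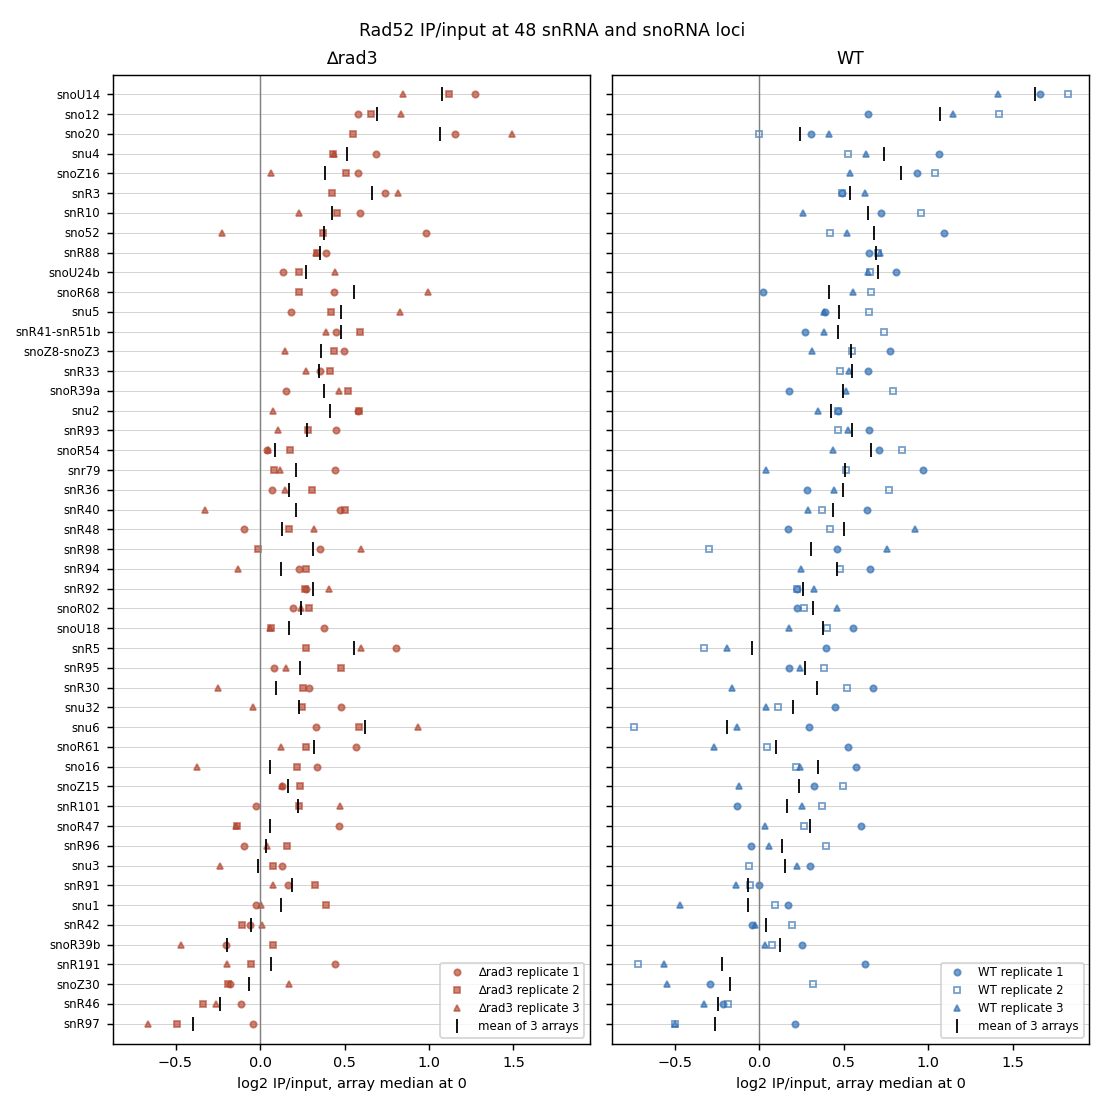
Level of each of the 48 loci (log2 IP/input, array median at 0) on the 3 ∆rad3 arrays (left) and the 3 WT arrays (right), ordered by the mean over both strains. Symbols are arrays, black ticks are means of 3 arrays, and open squares are the library labelled WT replicate 2. snoU14 is highest in WT, with every WT array above 1.4, and snR46 is below 0 on all 6 arrays.

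snoU14, the gene of a box C/D snoRNA needed for processing of 18S ribosomal RNA, had the highest WT level of all 10374 loci. Its level was 1.27, 1.12 and 0.84 in ∆rad3 and 1.66, 1.83 and 1.41 in WT. The strains did not overlap, and every array was far above 0. The means were 1.08 ± 0.22 in ∆rad3 (limma adjusted p = 0.00344) and 1.63 ± 0.21 in WT (limma adjusted p = 0.000989; SD, n = 3 each). In ∆rad3 the locus ranked 85 of 10374.

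sno12 was the other locus among the top 3 members in both strains. Its level was 0.58, 0.66 and 0.83 in ∆rad3 and 0.65, 1.42 and 1.15 in WT. The ranges of the strains overlapped through WT replicate 1. snR3, a box H/ACA gene whose budding yeast counterpart guides pseudouridylation of the large ribosomal subunit RNA, had levels of 0.74, 0.43 and 0.81 in ∆rad3 and 0.49, 0.49 and 0.63 in WT. It was called in each strain, and the strains overlapped. Its WT call was lost without the library labelled WT replicate 2 (0.56, limma adjusted p = 0.0568), and both calls were lost with windows of 250 or 1000 bp.

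Other loci were called in WT and not in ∆rad3. snoZ16 averaged 0.38 ± 0.28 in ∆rad3 and 0.84 ± 0.26 in WT (SD, n = 3 each). snR88 was close on all arrays of a strain, at 0.39, 0.34 and 0.33 in ∆rad3 and 0.65, 0.70 and 0.72 in WT. snoU24b, in an intron of cpc2, the gene of a ribosome-associated protein, had 2 probes and levels of 0.14, 0.23 and 0.45 in ∆rad3 and 0.81, 0.65 and 0.65 in WT. At both loci the strains did not overlap. The difference of these calls between strains is tested further on.

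Of the spliceosomal snRNA genes, only snu4 was called, in WT. Its level was 0.69, 0.43 and 0.44 in ∆rad3 and 1.06, 0.53 and 0.63 in WT, with overlapping ranges (limma adjusted p = 0.0559 in ∆rad3 and 0.0119 in WT). snu5, the gene of U5 snRNA, had levels of 0.18, 0.42 and 0.83 in ∆rad3 and 0.39, 0.65 and 0.38 in WT. snu2, the gene of U2 snRNA, which pairs with the branch site, had levels of 0.58, 0.59 and 0.07 in ∆rad3 and 0.47, 0.46 and 0.35 in WT. Both were above 0 on all 6 arrays and did not separate the strains. snu1, the gene of U1 snRNA, which pairs with the 5′ splice site, had levels of -0.03, 0.39 and 0.01 in ∆rad3 and 0.17, 0.09 and -0.47 in WT, on either side of 0. snu6 had levels of 0.33, 0.59 and 0.94 in ∆rad3 and 0.30, -0.74 and -0.13 in WT. All ∆rad3 arrays were above all WT arrays at snu6.

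By class, medians were 0.48 in ∆rad3 and 0.43 in WT for the 5 snRNA loci, 0.26 and 0.26 for the 18 box H/ACA loci, and 0.21 and 0.41 for the 25 other snoRNA loci. Without the library labelled WT replicate 2 the WT medians were 0.39, 0.32 and 0.35 in the same order. The 9 loci inside introns of coding genes had medians of 0.13 in ∆rad3 and 0.38 in WT, and the 39 others 0.31 and 0.35 (WT medians of 0.35 and 0.36 without that library). The intron loci included snoR54 in gua1, which encodes a GMP biosynthesis enzyme, and snoU24b in cpc2. None of the 9 was called in ∆rad3, against 3.09% of all loci, and 2 (22.2%) were called in WT, against 4.14%. Of the 39 others, 10.3% were called in ∆rad3 and 25.6% in WT. The lowest members were snR97, snR46, snoZ30, snR191 and snoR39b. snR97, a box H/ACA gene, had levels of -0.04, -0.49 and -0.66 in ∆rad3 and 0.21, -0.50 and -0.50 in WT.

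The local excess, the level of a locus minus that of probes 2 to 5 kb outside it, asks whether the signal stood above its own neighbourhood. It was called at 5 of 48 loci (10.4%) in ∆rad3, against 3.7% of all loci, and at 17 (35.4%) in WT, against 3.06%. Over both strains it was called at 9 loci (18.8%), against 2.84%. The 5 loci in ∆rad3 were snoU14, sno20, sno52, snu6 and snR5. Without the library labelled WT replicate 2, 10 loci were called in WT, against 1.74%. The excess of snoU14 was 1.05 ± 0.11 in ∆rad3 and 1.70 ± 0.11 in WT (limma standard error). The excess of snu4 was 0.46 in ∆rad3 and 1.04 in WT, and that of sno52, a box C/D gene, 0.51 and 0.90. On all arrays, the mean of probes 1 to 1.5 kb from the loci was at most 0.05.

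Single probes showed where within a locus the ratio was highest. At snoU14 the highest probe lay 286 bp 3′ of the centre, with 1.96, 1.44 and 1.85 in ∆rad3 and 2.07, 2.53 and 2.74 in WT. The strains did not overlap at this probe. At sno12 it lay 427 bp 3′ of the centre, with 1.16, 1.15 and 1.25 in ∆rad3 and 1.54, 2.57 and 2.16 in WT. The strains did not overlap there either. At the cluster snoZ8-snoZ3, whose 5 snoRNAs are cut from 1 precursor, the strain means were lowest before its 5′ end and highest just after snoZ3. The probe 722 bp 3′ of its centre had 1.64, 0.99 and 0.87 in ∆rad3 and 1.62, 2.04 and 1.47 in WT. The 2 strains overlapped there, through ∆rad3 replicate 1. On ∆rad3 replicate 3 and WT replicate 1 the probe at 410 bp, which overlaps snoZ3 itself, was higher, with 1.16 and 1.69.

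**Figure D2:**
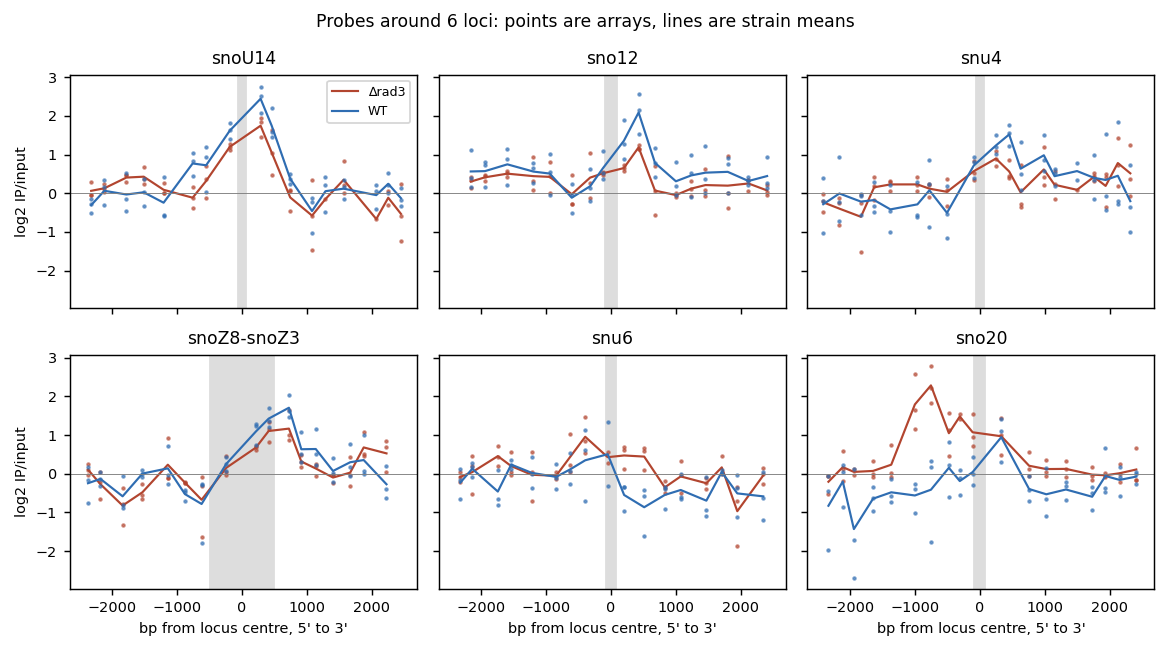
Log2 IP/input of single probes within 2500 bp of the centres of 6 loci, drawn 5′ to 3′ along each gene (bp on the x axis). Points are arrays, lines are means of 3 arrays in ∆rad3 (red) and WT (blue), and grey bands are the loci. The maximum of the mean lies 3′ of the gene at snoU14, sno12, snu4 and snoZ8-snoZ3 in both strains, while at sno20 the ∆rad3 maximum lies 5′ of it.

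Loci were then laid out by direction of transcription, a comparison chosen after these values had been seen. The DNA within 500 bp 3′ of the loci had mean levels of 0.53, 0.40 and 0.30 in ∆rad3 and 0.78, 0.73 and 0.55 in WT. The DNA within 500 bp 5′ of them had 0.17, 0.17 and 0.14 in ∆rad3 and 0.10, 0.09 and -0.07 in WT. On each of the 6 arrays the 3′ side was the higher one. From 1 kb outward, on either side, no array had a mean above 0.11. At tRNA genes, which RNA polymerase III transcribes, the 5′ side was the higher one on each array, at 0.47, 0.52 and 0.55 in ∆rad3 and 0.45, 0.50 and 0.65 in WT. Their 3′ side had 0.35, 0.39 and 0.41 in ∆rad3 and 0.34, 0.45 and 0.52 in WT.

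**Figure D3:**
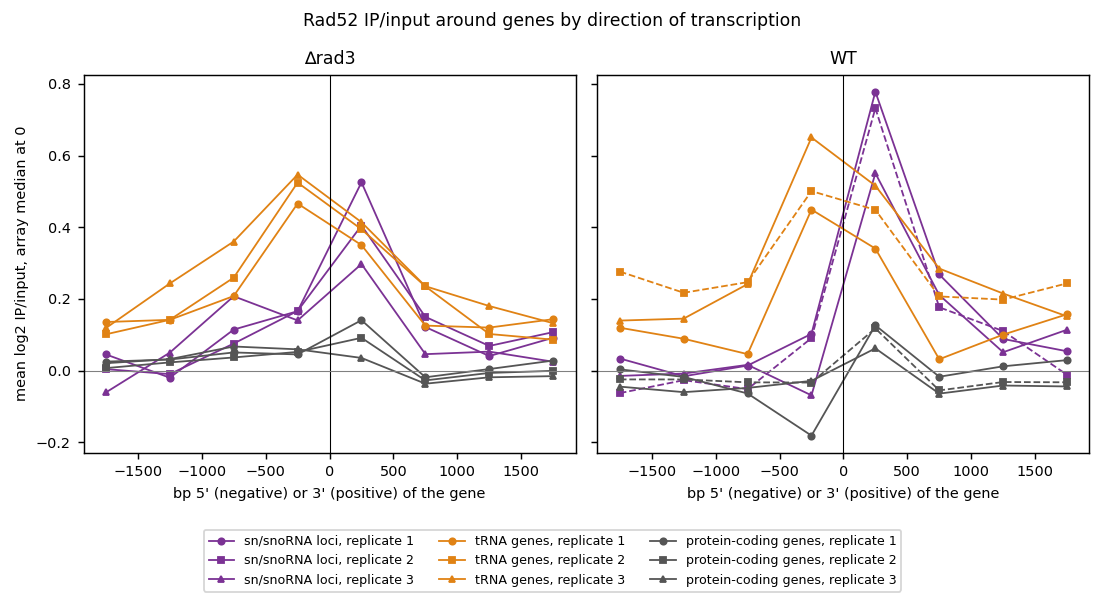
Mean log2 IP/input in steps of 500 bp 5′ (negative) and 3′ (positive) of snRNA and snoRNA loci, tRNA genes and protein-coding genes, 1 line per array, ∆rad3 on the left and WT on the right (dashed lines are the library labelled WT replicate 2). The snRNA and snoRNA lines peak just 3′ of the genes, between 0.30 and 0.53 in ∆rad3 and between 0.55 and 0.78 in WT, and the tRNA lines peak just 5′ of the genes.

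Of 44 loci with probes on both sides, the 3′ side was higher in the mean of 35 loci (79.5%) in ∆rad3 and of 40 loci (90.9%) in WT. Over all 9513 genes so measured the shares were 52.3% in ∆rad3 and 52.5% in WT, over 3977 protein-coding genes 54.9% and 65.9%, and over 106 tRNA genes 37.7% and 43.4%. At 21 loci (47.7%) the 3′ side was higher on all 6 arrays, against 8.79% of all genes. The median difference of the sides was 0.34 in ∆rad3 and 0.73 in WT, against 0.04 in ∆rad3 and 0.17 in WT over protein-coding genes. The WT median was 0.68 without the library labelled WT replicate 2. With normexp background correction the 3′ side was higher at 35 loci in ∆rad3 and at 33 in WT. Median A+T content was 68.1% on the 3′ side and 68.2% on the 5′ side of the 44 loci. The median input signal was 0.09 on the 3′ side and 0.20 on the 5′ side. The part of the input in the difference was not tested.

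The same fit was run on each side over every annotated gene. The 3′ level was called at 7 of 46 loci (15.2%) in ∆rad3, against 3.44% of all genes, and at 23 (50%) in WT, against 4.96%. The 5′ level was called at 2 of 46 loci in ∆rad3, sno20 and snR5, against 2.27%, and at 1 in WT, snoU14, against 2.38%. The excess of the 3′ over the 5′ level was called at 1 of 44 loci in ∆rad3, against 0.683%, and at 12 (27.3%) in WT, against 2.4%. That 1 locus was snoZ8-snoZ3, which was also among the 12. With the replicate block the 3′ level was called at 13 loci in ∆rad3, against 6.43%. The side-to-side comparison was then called at 3 loci in ∆rad3, against 2.37%, and at 20 in WT, against 5.8%. Without the library labelled WT replicate 2, the 3′ level was called at 11 loci in ∆rad3, against 5.63%, and at 12 in WT, against 1.19%, and the side-to-side comparison at 2 in WT, against 0.262%. Leaving out any 1 of the ∆rad3 arrays left 1 locus called on the 3′ side in ∆rad3, against 0.41% to 0.921% of all genes, and leaving out WT replicate 3 left 13 in WT, against 1.98%. With normexp background correction, 2 loci were called on the 3′ side in ∆rad3 and 0 in WT, against 2.97% and 0% of all genes, and the side-to-side comparison called 0 in each, against 0.494% and 0.378%.

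snR3 had the largest excess of the 3′ over the 5′ side in WT. Its 3′ levels were 1.46, 0.49 and 0.75 in ∆rad3 and 1.29, 1.41 and 1.25 in WT. Its 5′ levels were 0.02, -0.20 and 0.45 in ∆rad3 and -0.54, -0.22 and -1.07 in WT. The difference of the sides was 0.81 in ∆rad3 (limma adjusted p = 0.165) and 1.93 in WT (limma adjusted p = 0.00288). At snoZ8-snoZ3 it was 1.19 in ∆rad3 (limma adjusted p = 0.0313) and 1.83 in WT (limma adjusted p = 0.00288). The others called in WT were snR30 (U17), snR91, snR98, sno12, sno52, snoR54, snoR61, snu1, snu2 and snu4. snu1 and snu2 had 3′ levels of 0.31, 0.70 and 1.36 (snu1) and 0.76, 0.57 and -0.18 (snu2) in ∆rad3. In WT these were 0.97, 0.97 and 0.85 for snu1 and 1.05, 1.07 and 0.53 for snu2.

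A few loci ran the other way. In WT the 5′ side was higher at 4 loci, snu6, snR5, snR10 and snR48. snu6 had 5′ levels of 0.55, 0.86 and 1.47 in ∆rad3 and 0.61, -0.70 and 1.14 in WT. Its 3′ levels were 0.10, 0.60 and 0.67 in ∆rad3 and -0.38, -0.97 and -0.77 in WT. The excess of its 3′ over its 5′ side was -0.50 in ∆rad3 (limma adjusted p = 0.457) and -1.05 in WT (limma adjusted p = 0.06), so neither passed. At snR5, a box H/ACA gene, the corresponding values were -0.86 in ∆rad3 and -0.92 in WT, which did not pass either.

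**Figure D4:**
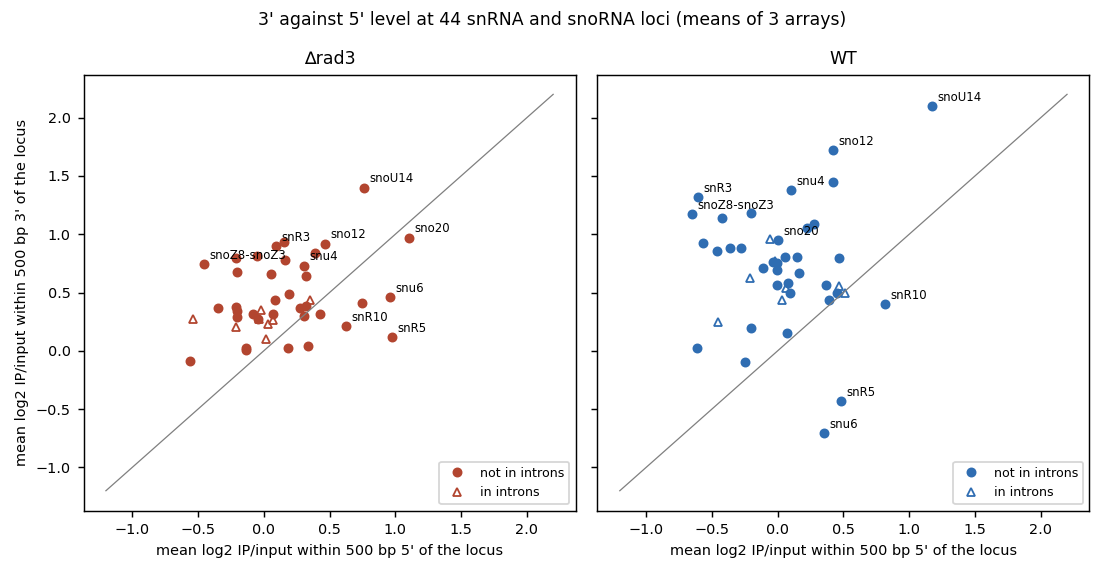
Mean level within 500 bp 3′ of each locus (y axis) against that within 500 bp 5′ (x axis), both log2 IP/input, in ∆rad3 (left) and WT (right), for the 44 loci with probes on both sides. Points are means of 3 arrays, triangles are loci in introns and the grey line marks equal levels. In ∆rad3 35 loci and in WT 40 loci lie above the line, and snu6, snR5 and snR10 lie below it in both.

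The neighbours on the 3′ side were also described. Of the 39 loci outside introns, the next protein-coding gene wholly beyond the 3′ end ran towards the locus at 25 (64.1%), against 38.4% for protein-coding genes. A coding gene that overlaps the locus was passed over, as at snR97, sno52, snR96, snR36, snoR02, snr79 and sno20. The same rule passed over overlapping neighbours of protein-coding genes. How many these were was not counted, so the shares may leave out unlike parts. The median distance to the next gene beyond the 3′ end was 241 bp at the 25 loci. Median 3′ levels were 0.34 in ∆rad3 and 0.75 in WT at the 25 loci, and 0.55 and 0.76 at the 14 loci followed by a gene in the same direction. Protein-coding genes that faced another gene's end had medians of 0.12 in ∆rad3 and 0.18 in WT. The 3′ neighbours of snoU14, snoZ8-snoZ3 and snu4 are sol1, psf3 and met17, at distances of 326, 68 and 241 bp, and all run towards the locus. That of sno12, mis16, runs in the same direction as sno12, at 520 bp.

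The comparison of strains asked whether the Rad52 signal at these genes changed without rad3. No locus of any kind passed at an adjusted p under 0.05 in limma, either higher in ∆rad3 (0% of all loci) or lower (0%). That fit held no block. At an unadjusted p under 0.05, 5 of 48 loci (10.4%) were lower in ∆rad3, against 2.12% of all loci, and 3 (6.25%) were higher, against 6.55%. The groups did not overlap at 6 loci (12.5%) lower in ∆rad3, against 5.75%, and at 3 (6.25%) higher, against 9.71%. With the library labelled WT replicate 2 left out, these were 7 loci lower, against 9.76%, and 5 higher, against 15.7%. The median difference, ∆rad3 minus WT, was -0.13, against 0.02 over all loci tested. The difference was below 0 at 31 of 48 loci (64.6%), against 46.0% of all loci. Without the library labelled WT replicate 2 it was below 0 at 28 loci (58.3%), and the share of all loci was not counted. Within slides 1, 2 and 3 the median differences were -0.15, -0.15 and -0.10, and slide 2 holds the library labelled WT replicate 2. For the local excess, 0 loci were lower and 0 higher in ∆rad3, against 0% and 0.116% of all loci. Leaving out ∆rad3 or WT arrays 1 at a time gave 0 local differences too. With the replicate block, snoU14 and snu4 were called lower in local excess, against 0.502% of all loci. Higher in local excess were 0 of the 48 loci, against 1.75%. For the level, the block called 0 of the 48 loci either way, against 0.684% of all loci higher and 0% lower.

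snoR54 had the most negative difference of the whole-locus level. Its level was 0.04, 0.18 and 0.05 in ∆rad3 and 0.71, 0.85 and 0.44 in WT. The strains did not overlap, at a difference of -0.57 ± 0.16 (standard error, limma adjusted p = 0.315). snoU14 followed with -0.55 ± 0.18 (adjusted p = 0.399 in limma) and snoZ16 with -0.45 ± 0.20 (limma adjusted p = 0.559). Leaving out the library labelled WT replicate 2, the 3 differences were -0.48, -0.46 and -0.35. With normexp background correction they were -0.32 at snoR54, 0.06 at snoU14 and -0.03 at snoZ16, so that of snoU14 turned its sign.

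sno20, a box H/ACA gene that overlaps a coding exon of SPBC1921.04C on the other strand, had the largest positive difference. Its level was 1.16, 0.55 and 1.49 in ∆rad3 and 0.31, -0.00 and 0.41 in WT. The strains did not overlap, at a difference of 0.83 ± 0.23 (limma adjusted p = 0.32). With the replicate block the adjusted p in limma was 0.0578. With the block and without the library labelled WT replicate 2, sno20 ∆rad3 minus WT was 0.96 (limma adjusted p = 0.00559) and was called, against 3.51% of all loci called higher. Slide 2 then held only its ∆rad3 array, so this difference came from slides 1 and 3. Its p-value rested mostly on the spread shared over all loci. The ∆rad3 signal was centred outside the gene. The probe at -751 bp, 5′ of its centre, had 2.23, 1.84 and 2.80 in ∆rad3 and 0.18, -1.75 and 0.34 in WT. A probe 332 bp 3′ of it was above 0 on all 6 arrays, with 0.99, 0.49 and 1.44 in ∆rad3 and 1.12, 1.43 and 0.29 in WT. snu6 followed with a difference of 0.81 ± 0.26 (limma adjusted p = 0.396) and snR5 with 0.60 ± 0.22 (limma adjusted p = 0.478). Leaving out the library labelled WT replicate 2, the differences at sno20, snu6 and snR5 were 0.71, 0.54 and 0.46.

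On the 3′ side, also chosen after the values had been seen, the difference ∆rad3 minus WT was below 0 at 39 of 46 loci (84.8%), against 46.5% of all genes. On the 5′ side it was below 0 at 19 of 46 (41.3%), against 44.2%. The library labelled WT replicate 2 left out, it was below 0 at 36 loci (78.3%) on the 3′ side and at 16 (34.8%) on the 5′ side. The shares of all genes without that library were not counted. The strain difference on the 3′ side was smaller with normexp background correction. Median 3′ levels of the 44 loci with both sides were then 0.36 in ∆rad3 and 0.46 in WT, against 0.37 in ∆rad3 and 0.73 in WT as reported. At the 36 of them outside introns the order turned with normexp, at 0.43 in ∆rad3 and 0.41 in WT. With the arrays scaled to 1 spread, the medians of the 44 loci were 0.48 in ∆rad3 and 0.73 in WT. No locus passed on the 3′ side in limma, either lower (0% of all genes) or higher (0.12%). At an unadjusted p under 0.05, 4 loci (8.7%) were lower on the 3′ side, against 1.53% of all genes, and 1, snu6, was higher, against 5.29%. The arrays did not overlap at 8 loci (17.4%) lower in ∆rad3, against 4.87%, and at snu6 higher, against 7.99%. The excess of the 3′ over the 5′ side was lower in ∆rad3 at 9 of 44 loci (20.5%) at an unadjusted p under 0.05, against 3.54% of all genes, and higher at 0, against 2.79%. None of the 9 passed the adjustment (0% of all genes in limma). These unadjusted and overlap counts include the library labelled WT replicate 2 and were not made without it. Within slides 1, 2 and 3, the mean 3′ level was -0.25, -0.33 and -0.25 in ∆rad3 relative to WT. Slide 2, with the largest of these, holds the library labelled WT replicate 2.

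The 8 loci were snR36, snR91, snR94, sno12, snoR54, snoU14, snoU18 and snu4. At sno12 the 3′ levels were 0.94, 0.90 and 0.91 in ∆rad3 and 1.22, 2.23 and 1.72 in WT, a difference of -0.80 ± 0.29 (limma adjusted p = 0.586). At snoR54 they were 0.12, 0.20 and 0.31 in ∆rad3 and 0.85, 1.04 and 0.98 in WT, a difference of -0.75 ± 0.25 (limma adjusted p = 0.478). At snu4 they were 0.77, 0.55 and 0.87 in ∆rad3 and 1.63, 1.12 and 1.38 in WT, a difference of -0.65 ± 0.26 (limma adjusted p = 0.674). That the 2 groups were apart at these 3 loci follows from the choice of the 8, and no difference passed the adjustment over all genes. snu6 ran the other way on the 3′ side, at 1.17 ± 0.28 (limma adjusted p = 0.18).

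**Figure D5:**
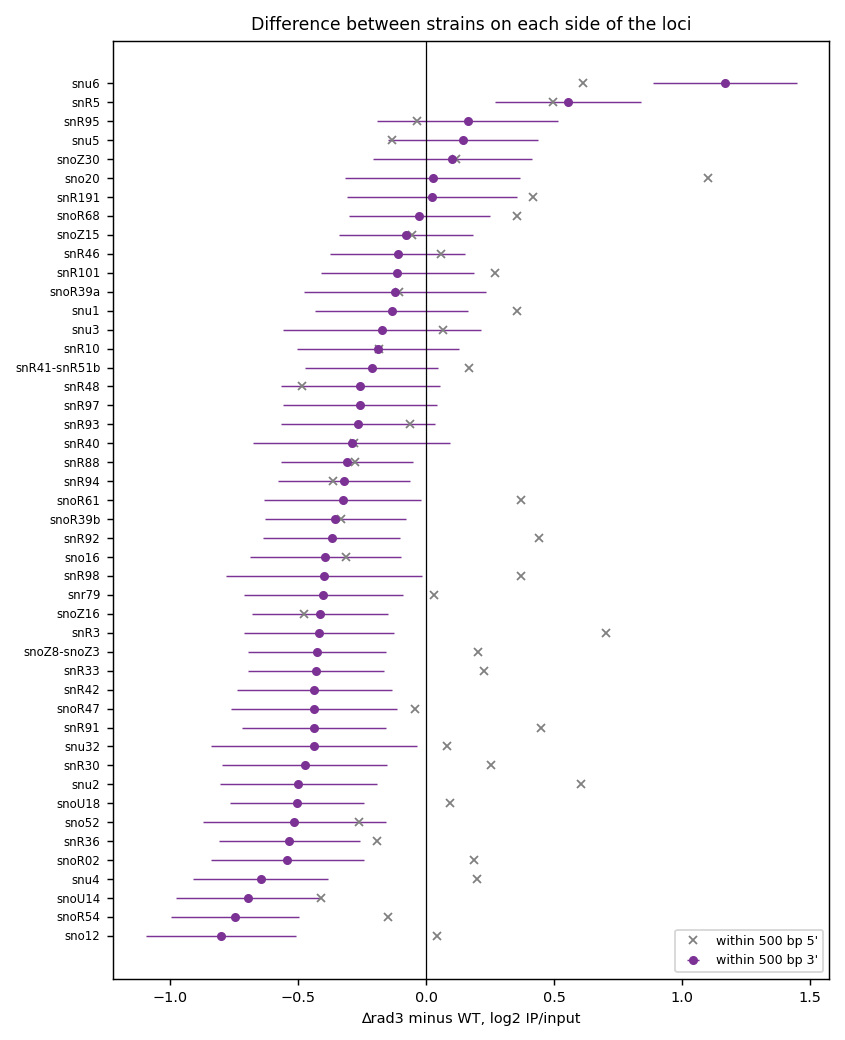
Difference ∆rad3 minus WT in log2 IP/input within 500 bp 3′ of each of 46 loci (purple, bars are limma standard errors) and within 500 bp 5′ of it (grey crosses, where measured). The 3′ difference is below 0 at 39 loci and highest at snu6.

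Features that the choice of members did not use were described without a test. The HomolD motif (CAGTCACA, either strand), a promoter element of fission yeast ribosomal protein genes, lay in the 300 bases around the gene start of 10 of 54 genes (18.5%), against 1.6% of all gene starts. The 10 loci with it had medians of 0.20 in ∆rad3 and 0.24 in WT, and the 38 without it 0.25 and 0.42. The HomolE motif, also on either strand, was found at 2 genes (3.7%), against 0.737%. The TATA motif (TATAAA) was found at 51.9%, against 45.2%, the B box (GTTCNANNC) at 7.41%, against 8.3%, and a run of 10 A at 1.85%, against 7.06%. This window reaches only into the first bases of a gene, so it misses the B box match in the intron of snu6. Among tRNA genes the B box share was 8.61%. The B box shares therefore do not cover matches further inside the genes. Of the 18 box H/ACA genes, 14 had an ACA near the 3′ end, and 13 of the 31 other snoRNA genes had matches to both box C (NTGATGA) and box D (CTGA). The start of snoU14, chrII:1308384-1308683, is shown with its TATAAA, 63 bases before the gene, in capitals.
snoU14 start region: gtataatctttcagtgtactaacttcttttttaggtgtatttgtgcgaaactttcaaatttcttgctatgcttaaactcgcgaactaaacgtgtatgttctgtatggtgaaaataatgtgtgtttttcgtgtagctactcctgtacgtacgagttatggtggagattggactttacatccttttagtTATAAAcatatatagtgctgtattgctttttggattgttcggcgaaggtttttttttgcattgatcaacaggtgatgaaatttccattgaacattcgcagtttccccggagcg

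Across the 48 loci, the A+T content of the window correlated with the level at r = 0.33 in ∆rad3 and -0.15 in WT, against 0.36 and 0.03 over all 10374 loci. These loci share arrays and base composition, and overlapping loci outside the list share probes. An A+T-rich island, a mostly non-coding stretch of high A+T content, lay within 500 bp of 7 loci. These had medians of 0.48 in ∆rad3 and 0.41 in WT, and the 41 others 0.23 and 0.35. The WT medians were 0.33 and 0.36 without the library labelled WT replicate 2.

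Protein-coding genes of the same particles were described in the same way. The 7 measured genes of box C/D and U3 proteins (such as fibrillarin, fib1) had medians of 0.01 in ∆rad3 and 0.11 in WT. Of these, 1 was called in ∆rad3 and 0 in WT, against 3.09% and 4.14% of all loci. The 4 measured box H/ACA protein genes had medians of -0.06 in ∆rad3 and -0.15 in WT, the 12 Sm and LSm genes -0.07 and -0.13, and the 11 snRNP-specific genes -0.15 and -0.16. The 7 genes of RNA polymerase III factors had medians of -0.00 in ∆rad3 and -0.12 in WT, and the 5 genes of snRNA and snoRNA maturation 0.07 and -0.23. None of the genes in these 5 lists was called in either strain, and 1 Sm or LSm gene was called over both strains, against 4.71% of all loci. Without the library labelled WT replicate 2, WT medians of all the lists were 0.16, -0.05, -0.13, -0.11, -0.01 and -0.12 in the order given.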

How the data were processed

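Rad52 ChIP DNA and input DNA were measured on 6 2-colour Agilent tiling arrays, 3 labelled ∆rad3 and 3 labelled WT. Per the file headers and the submitters' processing notes, the deposited intensity values come from Agilent Feature Extraction 10.7.3.1, after background subtraction, spatial detrending and a linear dye normalization per array. The log10 ratio deposited beside them (red over green) equalled that of the processed signals to within 0.01 for at least 99.9% of probes on every array. From the deposited processed signals, log2 of green (IP, per the labels) over red (input) was taken here and centred on the array median, with no loess or quantile step. Reciprocal labelling is mentioned in the series text, whereas all arrays are labelled in 1 orientation. The median signals served for normexp.

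Control spots and outlier spots were left out. Of 42707 probes, 42659 with input well above background on at least 3 arrays were kept. Probe coordinates follow the build in the headers (Spombe:NCBI:Feb2002). Gene positions are those of ASM294v3: probe length followed its A+T content with no shift beyond 20 bp in 107 of 107 windows, and chromosome I beyond 3.7 Mb, where 18 of 19 windows were shifted, was not used here.

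Probes within 500 bp of a locus were averaged. All 6 arrays entered 1 limma fit (limma 3.58.1, R 4.3.3) across all 10374 loci with at least 2 probes, or 10358 for the local excess, with Benjamini-Hochberg adjustment over all of them. The side comparisons covered every annotated gene with a probe on that side. Fits were tested on simulated data. Same-numbered arrays share a slide and a scan per the file headers, and their deviations from the group means correlated at 0.56, 0.13 and 0.27. Between arrays of unlike number the values ran from -0.46 to 0.19, so the pair of slide 2 did not stand apart. The main fit held no block for the slide. Alternatives were the slide as a replicate block, scaling, loess, normexp background, probe medians, no filter on dim probes, other windows, a trended robust variance and leaving out each array. Named loci were all snRNA loci, the 10 highest in each strain, the 5 lowest, 5 each way by size of the strain difference and the 5 with the largest local excess. Loci named for their 3′ or 5′ side, and neighbours, were chosen after their values were seen. The members and lists were chosen with earlier results of these data known.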

Additional observations from a re-analysis of the deposited data

Results flagged for a closer look

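snR91, a box H/ACA snoRNA gene on chromosome I, stood on opposite sides of the array median in the strains, with no overlap. Its level was 0.16, 0.33 and 0.08 in ∆rad3 and -0.00, -0.06 and -0.14 in WT. The difference was 0.25 on the log2 scale, and it did not pass in limma (Benjamini-Hochberg adjusted p = 0.651 over all loci). Its 3′ side ran the other way, at 0.43, 0.47 and 0.42 in ∆rad3 and 0.75, 0.53 and 1.36 in WT.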

How the results depend on the processing

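Over the alternatives, no called value of a named locus turned its direction. Differences between strains, of which none was called in the fit without a block, did turn with normexp background. They turned at snoU14 (0.06), sno12 (0.09), snR3 (-0.05), snoU24b (0.01) and snR191 (-0.24). The loci without a tRNA or 5S gene within 1 kb are all 48, so that setting equals the result as reported. With normexp background, 0 loci were called in WT (0% of all loci), 5 over both strains (1.94%), 3, 5 and 4 in local excess (2.77%, 0.879% and 1.11%; ∆rad3, WT and both strains) and 1 in local difference (1.04%), with a WT median of 0.18. On the sides it left 0 and 0 side-to-side calls (0.494% and 0.378% of all genes; ∆rad3 and WT), 2 and 0 on the 3′ side (2.97% and 0%) and 0 on the 5′ side in WT (0%). Scaled arrays gave 9 calls in ∆rad3 (6.89%), 8 in local excess in ∆rad3 (4.55%) and 4 on the 5′ side in ∆rad3 (6.45%). Loess gave 7 calls in ∆rad3 (4.03%), and a trended robust variance 1 in ∆rad3 (0.993%) and 0 in WT (0%). Windows of 1000 bp gave 5 calls over both strains (3.93%), 8 and 5 in local excess (1.88% and 1.73%; WT and both strains), 2 local differences (0.326%) and a WT median of 0.25, and windows of 250 bp a ∆rad3 median of 0.37. The replicate block gave 8 calls in ∆rad3 (5.55%), 2 local differences (2.25%), 3 and 20 side-to-side calls (2.37% and 5.8%; ∆rad3 and WT), 13 on the 3′ side in ∆rad3 (6.43%), and 5 and 2 on the 5′ side (5.75% and 6.29%; ∆rad3 and WT). It changed no other count by over 1.5 times. Without the library labelled WT replicate 2 and with the block, there were 8 calls in ∆rad3 (6.19%), 1 locus higher in ∆rad3 (sno20, against 3.51% of all loci) and 8 local differences (4.74%). Slide 2 then held no WT array, so these strain differences came from slides 1 and 3. Leaving out each array in turn gave 1 to 8 calls in ∆rad3 (0.202% to 5.88% of all loci) and 7 to 16 in WT (1% to 9.88%), and 2 to 6 (1.32% to 3.92%) and 10 to 17 (1.74% to 4.88%) in local excess (∆rad3 and WT). It gave 0 to 1 (0.0105% to 1.82%) and 2 to 12 (0.262% to 2.42%) side-to-side calls in ∆rad3 and WT. On the 3′ side it gave 1 to 11 (0.41% to 5.63%) and 12 to 21 (1.19% to 6.55%), and on the 5′ side 0 to 4 (0.131% to 4.64%) and 0 to 2 (0.462% to 3.97%). The cause of these shifts was not tested. Signal over background as low as 5.04 in the input and 5.10 in the IP (WT replicate 3) limits the precision of single loci.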

Other observations

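The gene pair SPNCRNA.498 and SPNCRNA.1709 has the snoRNA biotype but no such name, and stayed out of the members. SPNCRNA.498 had levels of 0.04, 0.63 and -0.29 in ∆rad3 and 0.36, 0.03 and -0.98 in WT. SPNCRNA.1709 had levels of 0.08, 0.17 and -0.28 in ∆rad3 and 0.22, -0.46 and 0.41 in WT. Both lay on either side of 0 in each strain.

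Protein-coding genes had a higher mean ratio 3′ than 5′ of the gene on every array other than ∆rad3 replicate 3, where the 5′ side was higher. Their mean was 0.14, 0.09 and 0.04 on the 3′ side in ∆rad3 and 0.13, 0.12 and 0.06 in WT. On the 5′ side it was 0.04, 0.05 and 0.06 in ∆rad3 and -0.18, -0.03 and -0.03 in WT. The WT replicate 1 value on the 5′ side was the lowest of these.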
